A study of Homo sapiens with 6 samples.

Results

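The pentose phosphate pathway branches from glycolysis at glucose 6-phosphate and was described here through 9 genes, taken as the rows of the read count table whose symbols are H6PD, PGLS, PGD, RPIA, RPE, TKT, TKTL1, TALDO1 and RBKS, among 20610 gene symbols in all. The rule names the genes and uses no measured value, though the members were chosen with earlier results of these data known. The study sequenced polyadenylated RNA of HT1080, a line established from a human fibrosarcoma, with 3 wild-type (WT) libraries and 3 libraries of cells in which PGK1 had been knocked out (KO) with CRISPR-Cas9. PGK1 encodes phosphoglycerate kinase 1, the first ATP-forming enzyme of glycolysis. No other genetic change or agent was named for either group. The sources used here do not give the guide, whether the KO cells were 1 clone or a pool, or whether the libraries of each group are separate cultures. The p-values therefore cover the spread among these libraries alone, and that spread may be technical.

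The pathway has an oxidative arm, which reduces NADP+ to NADPH and releases carbon dioxide from 6-phosphogluconate, and a reversible non-oxidative arm, which exchanges sugar phosphates between ribose 5-phosphate and the glycolytic intermediates fructose 6-phosphate and glyceraldehyde 3-phosphate. NADPH serves lipid synthesis and the reduction of glutathione and thioredoxin, and ribose 5-phosphate is the sugar of nucleotides. Of the oxidative-arm genes, H6PD encodes a dehydrogenase and lactonase of the endoplasmic reticulum lumen, PGLS the cytosolic 6-phosphogluconolactonase and PGD 6-phosphogluconate dehydrogenase. Of the non-oxidative genes, RPIA and RPE encode the isomerase and the epimerase of ribulose 5-phosphate, TKT transketolase, TKTL1 a transketolase-like protein and TALDO1 transaldolase. RBKS encodes ribokinase, by which free ribose enters as ribose 5-phosphate.

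Library totals ranged from 30175903 to 47047186 counts, and 1 count corresponded to 0.0209 to 0.0315 CPM (counts scaled to a common library total, with the TMM factors of edgeR). PGK1 fell from 1427 ± 19.9 to 155 ± 8.52 CPM (SD, n = 3 each), in the direction of the labels. Mesenchymal markers of a fibrosarcoma line were present in WT, except THY1 with 0, 2 and 0 counts in WT libraries 1 to 3. The epithelial markers EPCAM and KRT5 and the blood marker PTPRC had 0 counts in WT, but the other markers of their lists had some. In the same libraries CLDN4 had 74, 58 and 86 counts and KRT14 had 8, 4 and 5. CD3E had 4, 2 and 5 counts and PECAM1 had 366, 484 and 340. The marker lists also differed between the groups. All 9 tested of 10 mesenchymal markers were lower in KO, where 36.3% of all tested genes were lower, with a summed level of 14859 to 15426 CPM in WT and 3751 to 4410 CPM in KO. The 7 epithelial markers summed to 1.51 to 2.67 CPM in WT and 4.25 to 5.07 CPM in KO, with EPCAM and KRT5 at 0 in all 6 libraries. Of the 3 tested, CDH1 rose from 0.0489 ± 0.0462 to 0.964 ± 0.0584 CPM and ESRP1 from 0.0367 ± 0.0635 to 2.63 ± 0.182 CPM, while CLDN4 fell from 1.88 ± 0.521 to 1.05 ± 0.388 CPM (adjusted p = 1.66e-05, 2.15e-07 and 0.0378, edgeR). The 7 blood and endothelial markers summed to 9.98 to 11.5 CPM in WT and 2.05 to 2.99 CPM in KO, and both tested, PECAM1 and CDH5, were lower. The part of these shifts in the results below was not tested.

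TKT and RBKS were the members called lower in KO, RBKS with the larger fold change and TKT with the larger change in level. The promoters of these genes are shown with that of PGD, whose level differed by less than the spread between libraries, so that the sequences can be read side by side. They are the 250 bases before the RefSeq gene start in GRCh38.p14, 5′ to 3′ on the gene's strand, at chr3:53256023-53256272 (minus strand) for TKT, chr2:27890388-27890637 (minus strand) for RBKS and chr1:10398814-10399063 (plus strand) for PGD. Capitals mark matches to any of 4 short motifs, searched on both strands: TGACNNNGC, the core of the antioxidant response element bound by NRF2, CACGTG, an E-box, ACGTG, the core of a hypoxia response element, and GGGCGG, a GC box. ACGTG lies within CACGTG. In GENCODE 29 the genes start at chr2:27891098 for RBKS and chr1:10398592 for PGD. By that annotation the windows of RBKS and PGD lie inside the genes and not before them.
TKT: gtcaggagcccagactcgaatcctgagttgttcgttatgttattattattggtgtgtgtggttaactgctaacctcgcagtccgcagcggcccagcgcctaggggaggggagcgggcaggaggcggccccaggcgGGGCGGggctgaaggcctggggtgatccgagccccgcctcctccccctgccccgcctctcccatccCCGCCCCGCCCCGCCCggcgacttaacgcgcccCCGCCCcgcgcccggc
RBKS: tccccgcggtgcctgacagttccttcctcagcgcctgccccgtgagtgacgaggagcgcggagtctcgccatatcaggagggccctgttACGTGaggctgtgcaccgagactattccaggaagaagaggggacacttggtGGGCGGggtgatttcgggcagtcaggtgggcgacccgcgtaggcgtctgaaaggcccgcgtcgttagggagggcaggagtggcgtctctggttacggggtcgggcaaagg
PGD: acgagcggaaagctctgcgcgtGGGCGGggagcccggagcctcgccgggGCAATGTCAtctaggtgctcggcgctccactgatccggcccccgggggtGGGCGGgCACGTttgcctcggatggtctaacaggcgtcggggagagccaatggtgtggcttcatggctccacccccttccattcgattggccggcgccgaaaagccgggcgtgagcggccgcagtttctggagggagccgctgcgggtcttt

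In windows of 300 bases, from 250 before the start to 50 after it, the TKT promoter held 5 GC boxes and no match to the other 3 motifs. The RBKS promoter held 1 GC box and 1 ACGTG. The PGD promoter held 2 GC boxes, 1 ACGTG and 1 TGACNNNGC, and among the other members only RPE had a TGACNNNGC. Of 34796 distinct promoter windows of the same length in the RefSeq table, 44.9% held a GC box, 21.4% an ACGTG, 13.3% a TGACNNNGC and 7.2% a CACGTG. A match is a match of letters and not a measured binding site, and a window without one says only that these letters are not in it. All 9 members had a promoter in the table.

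The levels spanned a wide range. Genes of different length are compared here as FPKM, the authors' deposited fragments scaled to gene length and library total. TKT was the highest, at 508 ± 14.2 FPKM in WT and 243 ± 14.1 FPKM in KO (SD, n = 3 each, as for all values below). PGD followed with 89.5 ± 2.14 and 106 ± 3.56 FPKM, and TALDO1 with 69.5 ± 1.35 and 77.0 ± 6.68 FPKM. Below them stood PGLS with 29.9 ± 0.537 and 34.5 ± 4.08 FPKM and RPE with 24.8 ± 0.359 and 32.1 ± 1.34 FPKM. The order of the members by mean level was the same in both groups, but in KO the libraries of PGLS and RPE overlapped, so these neighbours did not differ beyond their spread. RPIA had 15.3 ± 0.793 and 20.3 ± 0.914 FPKM and H6PD 4.72 ± 0.0726 and 5.13 ± 0.245 FPKM. RBKS had 1.10 ± 0.153 and 0.158 ± 0.0372 FPKM.

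**Figure D1:**
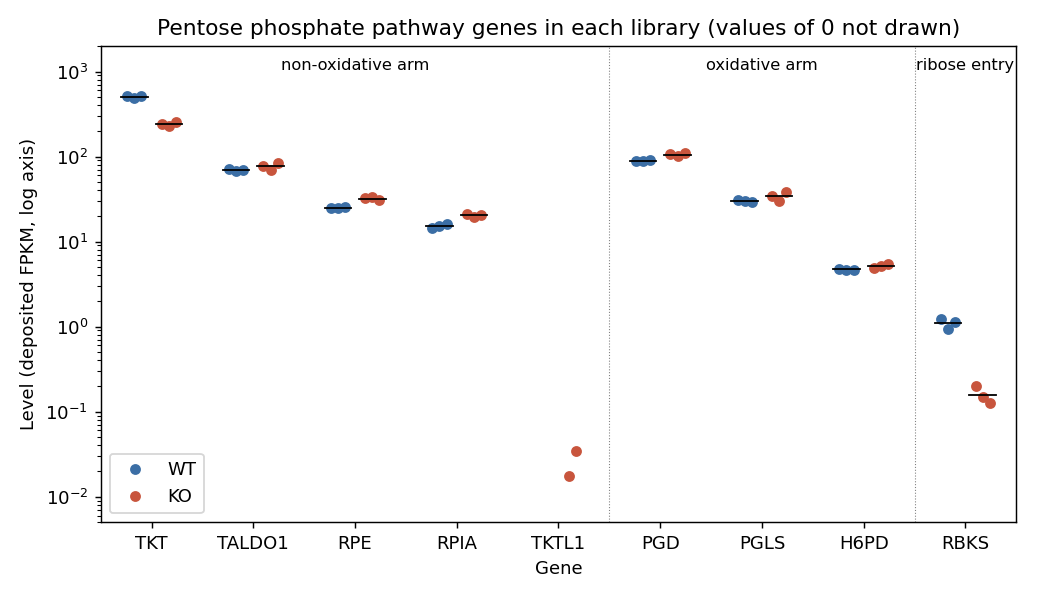
Level of each member (x axis) in each library as deposited FPKM on a log axis, with WT in blue, KO in red and black bars at the group means. TKT sits highest in both groups (508 and 243 FPKM), and TKT and RBKS are the 2 genes whose KO points lie below all WT points.

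Counts were compared with edgeR's quasi-likelihood test, Benjamini-Hochberg adjusted across 13249 genes left by a low-count filter, at a threshold of 0.05. Of the 9 members 8 passed the filter, and 4 of these 8 were called, 2 higher and 2 lower in KO, where 76.4% of all tested genes were called, 40.0% higher and 36.3% lower. The CPM of the groups did not overlap for the same 4 members, against 79.2% of all tested genes. Without KO library 3, 6 members were called, 1 higher and 5 lower, and without any 1 of the 6 libraries at most 1 member was called higher. The median log2 fold change of the 8 was -0.04, beside 0.05 over all tested genes. None of the 3 oxidative-arm genes was called. Of the 5 non-oxidative genes TKT was lower, RPIA and RPE were higher, TALDO1 was not called and TKTL1 was not tested.

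Transketolase transfers 2-carbon units and links the pathway to glycolysis in both of its reactions. TKT (ENSG00000163931.15, chr3:53224707-53256052, minus strand, GENCODE 29 on GRCh38) had 1406, 1320 and 1361 CPM in WT libraries 1 to 3 and 551, 519 and 607 CPM in KO libraries 1 to 3. Every KO library was below every WT library. The level fell to 41.0% of WT, which is -1.29 on the log2 scale with an SE of 0.064 (edgeR, adjusted p = 1.24e-10). Of all tested genes 11.2% had a lower log2 fold change. In bulk RNA, fewer cells with the transcript and less transcript per cell cannot be told apart. The call held under all 17 alternative analyses, with log2 fold changes from -1.39 to -1.06.

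Ribokinase is a separate entry to ribose 5-phosphate and was near the lower end of measured levels. RBKS (ENSG00000171174.14, chr2:27781364-27891098, minus strand) was covered by 93, 80 and 81 counts in WT against 16, 9 and 7 counts in KO. As CPM these were 2.44, 1.83 and 2.23 in WT and 0.334, 0.247 and 0.220 in KO, so the groups were far apart. The log2 fold change was -2.98 (SE 0.337, adjusted p = 1.25e-06, edgeR), or 12.7% of WT, and 1.5% of tested genes had a lower one. On log2(FPKM + 1), where the pseudocount is as large as the level, it was -0.85. Of the 3585 exon bases of RBKS, 122 are shared with BABAM2 on the opposite strand, whose reads cannot be told apart because the strand setting of the counting is not given. BABAM2 itself had 39.9 CPM in WT and 39.1 CPM in KO (adjusted p = 0.783, edgeR).

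The oxidative arm, which feeds NADPH, showed no call. PGD (ENSG00000142657.20, chr1:10398592-10420144, plus strand) had 223, 226 and 232 CPM in WT and 228, 218 and 243 CPM in KO. The groups overlapped, and the log2 fold change was 0.02 with an SE of 0.053 (adjusted p = 0.797, edgeR). PGLS (chr19:17511629-17521288) had 44.3, 42.9 and 42.4 CPM in WT and 42.6, 36.9 and 48.8 CPM in KO (log2 -0.02, SE 0.087). Its KO library 1 lay within the WT range, KO library 2 below it and KO library 3 above it. H6PD (chr1:9234775-9271337) had 51.2, 49.7 and 49.4 CPM in WT and 44.1, 45.7 and 50.3 CPM in KO (log2 -0.10, SE 0.066, adjusted p = 0.168, edgeR). KO library 3 was the highest KO library for all 3 genes. Without it H6PD and PGLS were called lower, with log2 fold changes of -0.20 and -0.16 (adjusted p = 0.00309 and 0.0280, edgeR), while PGD was not called at -0.07.

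The isomerase and epimerase genes, which act on the product of the oxidative arm, were slightly higher in KO. RPIA (chr2:88691644-88750935) had 28.98, 29.85 and 31.82 CPM in WT and 35.1, 32.2 and 36.2 CPM in KO, with no overlap (log2 0.19, SE 0.074, adjusted p = 0.0297, edgeR). RPE (chr2:210002565-210022259) had 88.3, 87.7 and 89.8 CPM in WT and 99.1, 99.7 and 96.1 CPM in KO, again with no overlap (log2 0.15, SE 0.051, adjusted p = 0.0147, edgeR). These levels, 114.1% and 111.0% of WT, passed the threshold or not depending on the analysis. Both calls were lost with RLE scaling in edgeR (adjusted p = 0.0643 for RPIA and 0.0511 for RPE) and in DESeq2. The call of RPE was also lost without any 1 library other than KO library 3 (adjusted p = 0.0530 to 0.0898). The call of RPIA was lost without WT library 1 or 2 or KO library 1 or 3 (adjusted p = 0.106 to 0.155).

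RPE reads also have other possible sources. GENCODE 29 names 6 processed pseudogenes of RPE and the retrogene RPEL1, which had 86 counts over the 6 libraries against 21887 for RPE. Of the 3522 exon bases of RPE, 837 are shared with KANSL1L on the opposite strand, which had 8.57 CPM in WT and 7.63 CPM in KO. PGD and RPIA have 1 named processed pseudogene each, so their values are uncertain to the extent that reads were shared.

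Transaldolase works beside transketolase on the same sugar phosphates, and its gene was not called. TALDO1 (chr11:747329-765024) had 95.8, 91.6 and 92.7 CPM in WT and 87.9, 79.7 and 98.8 CPM in KO (log2 -0.07, SE 0.070, adjusted p = 0.353, edgeR). KO library 3 lay above and the other KO libraries below all WT libraries. Without KO library 3 it was called lower at log2 -0.20 (adjusted p = 0.000952, edgeR). The paralog TKTL1 (chrX:154295671-154330350) had 0 counts in each WT library and 2, 3 and 0 counts in the KO libraries, at or under a floor of 3 counts per library (0.0626 to 0.0945 CPM), so no fold is given. The retrogene TKTL2 had 0 counts throughout, so TKT held nearly all transketolase-family counts in both groups.

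**Figure D2:**
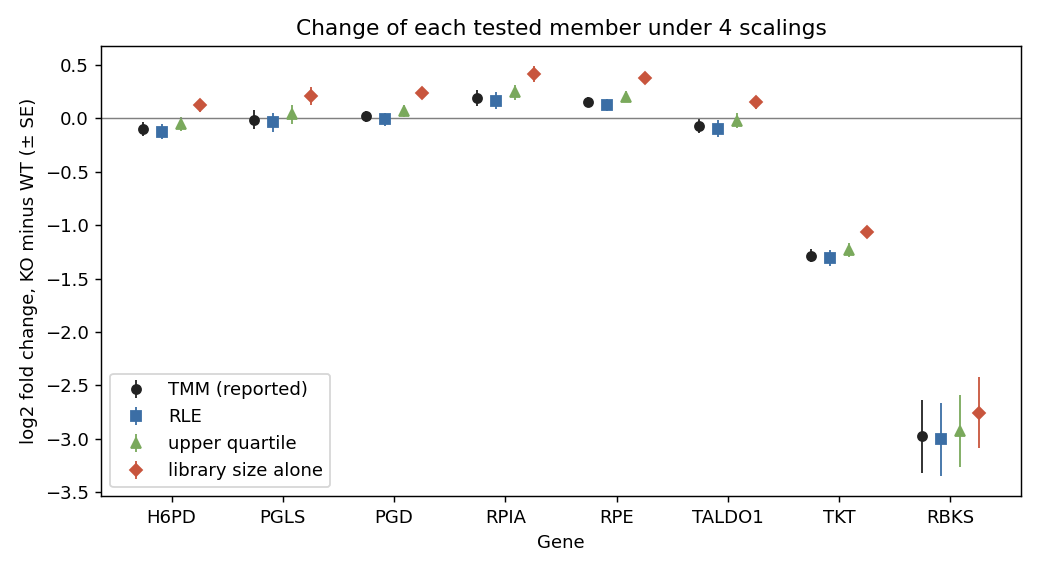
Log2 fold change, KO minus WT, of the 8 tested members (x axis) with its SE under 4 scalings of the libraries. TKT (-1.29 with TMM) and RBKS (-2.98) lie below 0 under each of these scalings, whereas H6PD, PGLS and TALDO1 lie below 0 with TMM and above 0 with library size alone.

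The direction of the small changes of H6PD, PGLS, PGD and TALDO1 depended on how the libraries were scaled. RPIA and RPE were higher in KO under each scaling. The TMM factors lay between 0.921 and 0.929 for WT libraries and between 1.05 and 1.10 for KO libraries. With library size alone the median of all tested genes moved by 0.22 on the log2 scale, and the share of called genes that were higher in KO went from 52.4% to 63.6%. FPKM carry no such factors, and on that scale the KO libraries of H6PD and PGD also lay above all WT libraries. With library size alone PGD, PGLS, TALDO1, RPIA and RPE were all called higher, with log2 fold changes of 0.24, 0.21, 0.15, 0.41 and 0.37, and TKT and RBKS were still called lower. H6PD was at 0.12 and was not called. Relative to the median of all tested genes, the TMM log2 fold changes were -0.16 for H6PD, -0.07 for PGLS, -0.04 for PGD, 0.14 for RPIA, 0.10 for RPE, -0.13 for TALDO1, -1.34 for TKT and -3.03 for RBKS.

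Ratios between members within a library do not depend on that scaling. TKT made up 69.0%, 68.0% and 68.2% of the summed FPKM of the 9 members in WT libraries 1 to 3 and 46.7%, 46.9% and 47.2% in KO libraries 1 to 3. The share of the oxidative arm was 16.25%, 17.02% and 16.85% in WT and 28.1%, 28.0% and 28.0% in KO, so it was higher in every KO library. PGD alone went from 12.1 ± 0.407% to 20.4 ± 0.417% of the sum. With TKT left out of the sum, the oxidative arm held 52.9 ± 0.365% in WT and 52.8 ± 0.208% in KO, and these values overlapped. On FPKM the groups differed in the weight of the arms only with TKT in the sum. On CPM without division by length, the oxidative arm without TKT held 59.9 ± 0.241% in WT and 58.9 ± 0.601% in KO. These CPM shares did not overlap, with the closest libraries at 59.635% in WT and 59.625% in KO.

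**Figure D3:**
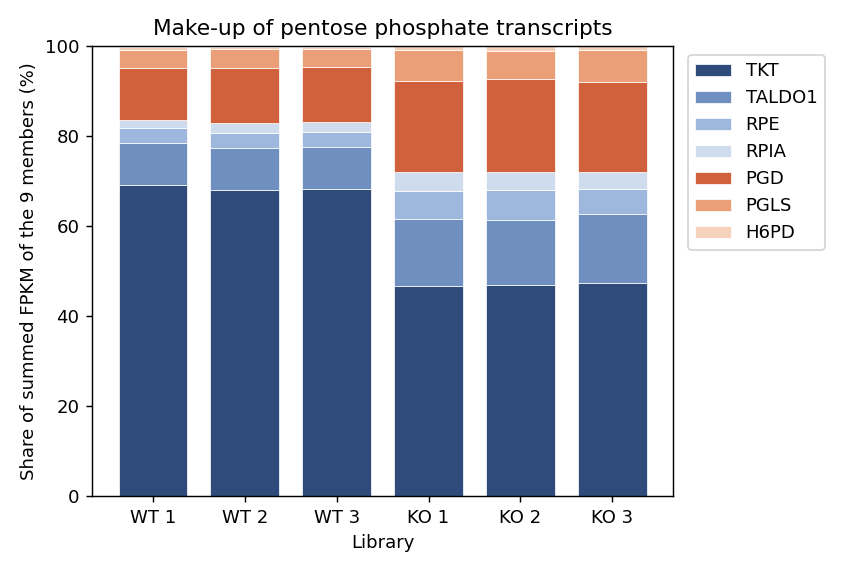
Share of the summed FPKM of the 9 members in each library, non-oxidative genes in blue and oxidative genes in red, as stacked bars from 0. The TKT block shrinks from 68.0% to 69.0% in WT to 46.7% to 47.2% in KO. TKTL1 and RBKS, together under 1%, are not drawn.

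The ratio of TKT to PGD was 5.96, 5.53 and 5.55 in WT and 2.29, 2.26 and 2.37 in KO. That of TKT to TALDO1 was 7.35, 7.22 and 7.36 in WT and 3.14, 3.27 and 3.08 in KO. Both ratios were lower in each KO library. All 7 ratios of TKT to another tested member were separated between the groups, as were all 7 of RBKS. TKT and RBKS were the members called lower, so these separations follow from the same values. The share of separated ratios among pairs of other genes was not computed, and 79.2% of all tested genes taken singly did not overlap. Of the 15 ratios among the other 6 members, 7 were separated, and the largest difference, for H6PD against RPIA, was -0.29 on the log2 scale. That of RPE to RPIA was 1.63 ± 0.0624 in WT and 1.59 ± 0.124 in KO, and that of PGD to PGLS 3.00 ± 0.123 and 3.08 ± 0.266, with overlap in both.

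Among genes that make, use or recycle ribose phosphates, 17 of 20 listed were tested, and 7 were called higher and 6 lower, where 40.0% of all tested genes were higher and 36.3% lower. These shares are near those of all tested genes, so the counts show nothing particular to the list. The median log2 fold change was 0.01, beside 0.05 over all tested genes. PRPS2, a synthetase that turns ribose 5-phosphate into phosphoribosyl pyrophosphate for nucleotides, fell from 155 ± 3.63 to 42.0 ± 1.54 CPM (log2 -1.89, SE 0.055). PRPSAP1, which binds and restrains these synthetases, fell from 91.6 ± 1.59 to 38.7 ± 0.625 CPM (log2 -1.24). UPP1, a uridine phosphorylase that frees ribose 1-phosphate, rose from 24.6 ± 3.25 to 215 ± 13.7 CPM (log2 3.13, SE 0.090). TIGAR, a fructose bisphosphatase known to direct hexose phosphate into the pathway, rose from 24.9 ± 1.30 to 73.2 ± 1.45 CPM (log2 1.56). PNP, a purine nucleoside phosphorylase named after its value was seen, rose from 104 ± 1.64 to 211 ± 8.32 CPM. None of these 5 genes had overlapping groups (adjusted p from 3.94e-13 to 1.13e-10, edgeR), as was so for 79.2% of all tested genes. PRPS2, PRPSAP1, UPP1 and TIGAR were named for the smallest p in the list, so their small p-values follow from that choice.

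Of 14 genes listed around other NADPH supply, all tested, 5 were higher and 6 lower (median log2 -0.08). These counts are also near the 40.0% and 36.3% of all tested genes, while scaling by library size alone gave 6 higher and 3 lower. The list is broad, and not all of its members, NADK and NADK2 among them, encode enzymes that form NADPH. ALDH1L1, a cytosolic folate dehydrogenase, fell from 118 ± 6.17 to 18.9 ± 1.53 CPM, and IDH2, the mitochondrial NADP-dependent isocitrate dehydrogenase, from 23.5 ± 0.656 to 3.76 ± 0.308 CPM, each to about 16.1% of WT. IDH1, its cytosolic counterpart, rose from 82.3 ± 5.07 to 151 ± 4.66 CPM (log2 0.88) and MTHFD2L, a mitochondrial folate enzyme, from 6.06 ± 0.633 to 13.9 ± 1.80 CPM. These 4 had adjusted p from 1.98e-13 to 8.05e-07 (edgeR). Counts per gene do not separate the alleles of a gene, and the NADPH that these enzymes make or use was not measured.

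The glycolytic enzymes that share hexose or triose phosphates with the pathway were mostly lower, as TKT was. Of 14 listed, 11 were tested, 9 of them lower and 1 higher (median log2 -1.07), where 36.3% of all tested genes were lower and 40.0% higher. ALDOC, an aldolase, fell from 641 ± 17.9 to 13.1 ± 0.904 CPM, and ALDOA, the major aldolase, from 2960 ± 75.4 to 904 ± 111 CPM. The phosphofructokinases PFKL and PFKP also fell, PFKL from 214 ± 11.2 to 61.8 ± 4.52 CPM, PFKP from 441 ± 10.9 to 197 ± 3.26 CPM. These 4 had adjusted p from 2.97e-16 to 7.67e-11 (edgeR), and the counts of 9 and 1 were the same under each alternative analysis of this list.

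H6PD works in the endoplasmic reticulum on glucose 6-phosphate brought in by the transporter SLC37A4, and the NADPH it makes there serves HSD11B1, which regenerates cortisol. Both partners fell while H6PD was not called, where 76.4% of all tested genes were called and 36.3% were lower. Of the 3 tested genes in this list, 2 were lower and 0 higher. SLC37A4 fell from 32.1 ± 1.31 to 6.59 ± 0.983 CPM (log2 -2.29, SE 0.105, adjusted p = 4.62e-11) and HSD11B1 from 29.2 ± 0.389 to 7.94 ± 0.484 CPM (log2 -1.87, SE 0.087, adjusted p = 5.37e-11, edgeR for both). The glucose 6-phosphatase gene G6PC3 had 38.8 ± 2.10 and 40.9 ± 5.74 CPM (adjusted p = 0.462, edgeR), and G6PC had 0 counts.

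**Figure D4:**
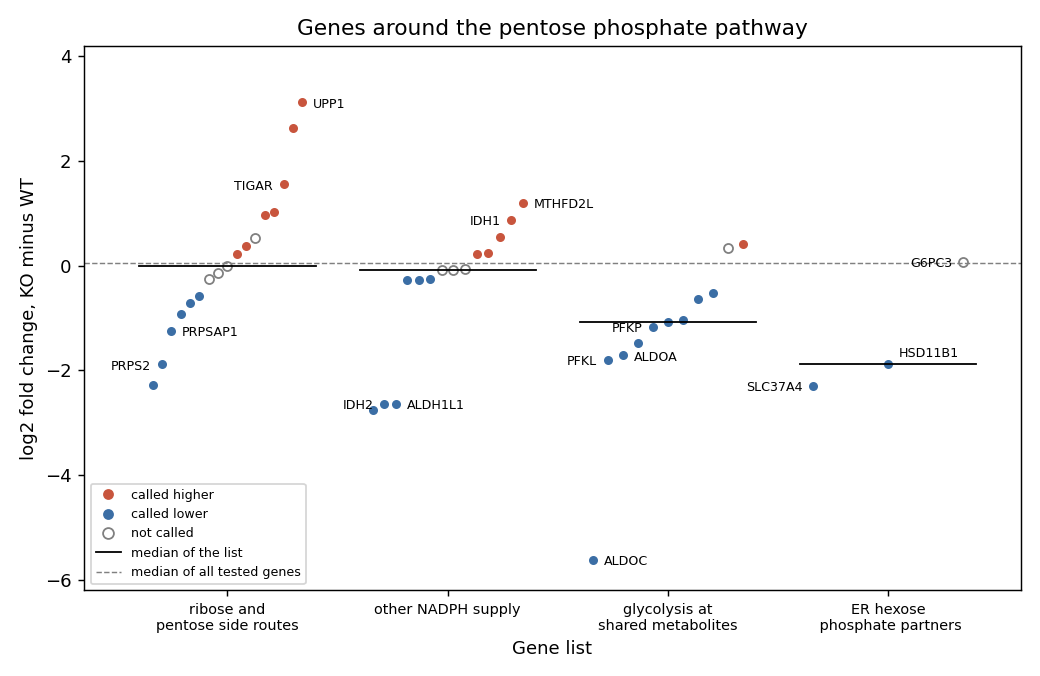
Log2 fold change, KO minus WT, of each tested gene in 4 lists around the pathway (x axis), with the 4 genes of smallest p-value in each list named (3 in the last). The glycolysis list lies mostly below 0, with a median of -1.07, whereas the ribose and NADPH lists spread to both sides of the median of all tested genes (0.05).

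As a description of likeness over the 6 libraries, the genes whose log2 CPM correlated best with TKT were C8orf82, MAP3K3 and VKORC1 (Pearson r = 1.00 for each after rounding). With 2 well-separated groups this is common, since 3173 genes reached an r of at least 0.95 with TKT. For PGD the closest were CDK8, EAF2 and NENF (r = 0.98 for each), and 12 genes reached 0.95. All values share the libraries and their depth.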

How the data were processed

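The authors deposited read counts per gene and FPKM values. Per the submitters' processing notes, fastp, HISAT and hg38 were used; for the counting tool, annotation and strand the answer is not given in the sources used here. The deposited FPKM are each count divided by its library total and by 1 length per gene, in 17521 of 17521 genes with counts (relative deviation at most 4e-14), so they add no independent measurement. Counts were tested with edgeR 4.0.16 (R 4.3.3; TMM, filterByExpr, robust dispersion, group as the only term; SE from the log2 fold change and F). The test was tried on simulated data. Alternatives were RLE, upper-quartile or no scaling, other filters, a replicate block, DESeq2 1.42.0, limma 3.58.1 (voom, or log2(FPKM + 1) and log2(FPKM + 0.1)) and each library left out. Members, PGK1, up to 4 genes of smallest p per list and 3 nearest patterns of PGD and TKT were named by rule. Members and lists were chosen with earlier results of these data known. Within groups, Pearson r of log2 CPM was 0.988 to 0.994, between groups 0.908 to 0.912; no library repeated another (the lowest chi-square over its degrees of freedom was 3.69). Floors cover counting error only.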

Additional observations from a re-analysis of the deposited data

How the results depend on the processing

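TKT, RBKS, PGK1 and the named list genes other than G6PC3 kept their direction and call under the 17 alternatives run; PNP was not followed. With RLE scaling and with DESeq2, 2 members were called and 0 higher, with log2 fold changes of -0.0089 for PGD, 0.16 for RPIA and 0.12 for RPE. With upper-quartile scaling PGLS was 0.035. With library size alone 7 members were called, 5 higher, and H6PD, PGLS, PGD and TALDO1 were 0.12, 0.21, 0.24 and 0.15. On log2(FPKM + 1) and log2(FPKM + 0.1), both without TMM factors, 4 members were called higher, namely PGLS, PGD, RPIA and RPE. H6PD, PGLS, PGD and TALDO1 were 0.10, 0.19, 0.23 and 0.14 on log2(FPKM + 1). On log2(FPKM + 0.1) they were 0.12, 0.20, 0.24 and 0.14. H6PD and TALDO1 were not called on either scale. Under these 3 unscaled analyses 3 genes of other NADPH supply were lower and 1 gene of the endoplasmic reticulum list was higher. Asking also for a change of 1 or more on the log2 scale left 4104 genes, 2048 higher and 2056 lower, and 2 members, 0 higher. On CPM without division by length, the oxidative arm held 28.99% in KO, and TKT 71.8% in WT and 50.8% in KO. With TKT left out, the CPM share of the oxidative arm was slightly lower in every KO library than in any WT library.

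Leaving out each library in turn gave 2 to 6 members called, 0 to 1 higher and 2 to 5 lower. Log2 fold changes were -0.20 to -0.078 for H6PD, -0.16 to 0.059 for PGLS, -0.071 to 0.031 for PGD, 0.11 to 0.22 for RPIA, 0.12 to 0.15 for RPE and -0.20 to -0.022 for TALDO1. G6PC3 was -0.078 without KO library 3. No pairing by replicate number was seen in expression, where deviations of same-numbered libraries correlated at -0.0012, 0.0057 and -0.011. These values cannot tell whether same-numbered libraries were handled together, which the sources used here do not say. With the replicate number as a block, 9986 genes and 4 members were called, RPIA at an adjusted p of 0.0380 and RPE at 0.0249 (edgeR), and no member changed its call. The causes of these differences between analyses were not tested. Depth limits TKTL1, with at most 3 counts in a library.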
